A study of Mus musculus with 90 samples.

Results

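The stress-protein genes described here were a set of 9 named genes, Hspa1a, Hspa1b, Hsph1, Hspa8, Hsp90aa1, Dnajb1, Hspb1, Hspa5 and Cirbp, followed over 90 mouse lungs. A probe set counted for a gene when the platform annotation gave it that single symbol, and the brightest such probe set over the 90 arrays stood for the gene. By this rule 8 of the 9 genes were measured, of 17097 genes in all. Hspa1a had 0 probe sets of its own, and no value is given for it.

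Whole lungs came from adult male C57BL/6 mice of 3 strains, with 1 array per mouse and 5 mice in each of 18 groups. The KO strain is the CYP2F2(-/-) knock-out, which lacks the mouse lung cytochrome P450 that oxidises styrene. The TG strain is the CYP2F2(-/-),2F1,SA13,2B6 transgenic, a CYP2F1 humanized mouse that carries the same knock-out, and WT is wild type. In each strain, mice inhaled styrene at 40 ppm or 120 ppm, or air at 0 ppm, for 4 weeks or 1 week, 6 hours per day on 5 days per week. Lungs were taken the morning after the last exposure. The sources used here do not give the promoters of the transgenes. Array signals are log2 values, so a difference of 1 is a 2-fold change. Such values compare mice for one probe set, not one gene with another. Signals of the lung markers Sftpc, Scgb1a1 and Ager were high on every array, between 13.38 and 13.94. The median signal of an array ranged over the 90 arrays between 4.42 and 4.86. Limma's array weights were below 0.25 for 4 arrays, 1 each in the KO 4 week 40 ppm, WT 1 week 120 ppm, TG 1 week 0 ppm and KO 1 week 0 ppm groups. In whole lung, fewer cells of a type and less RNA per cell cannot be told apart.

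Heat shock proteins are chaperones that bind unfolded protein, and most of their genes are switched on when heat shock factor 1 binds heat shock elements in their promoters. Hspa5, also called BiP, is the chaperone of the endoplasmic reticulum and is induced by the unfolded protein response through a separate promoter element. Cirbp encodes an RNA-binding protein whose transcript rises when cells are mildly cooled and falls when they are warmed, opposite to the heat shock genes, and it also follows the daily rhythm of body temperature.

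Upstream sequences are shown for the 4 genes that passed the test of any difference among groups with arrays weighted equally. They hold the 250 bases before the annotated start in RefSeq (GRCm38.p6), 5′ to 3′ on the strand of the gene. Capitals mark paired heat shock units, either inward (GAANNTTC) or outward (TTCNNGAA), or the endoplasmic reticulum stress element (CCAAT, any 9 bases, then CCACG).
Hspa1b (chr17:34959239-34959488, minus strand): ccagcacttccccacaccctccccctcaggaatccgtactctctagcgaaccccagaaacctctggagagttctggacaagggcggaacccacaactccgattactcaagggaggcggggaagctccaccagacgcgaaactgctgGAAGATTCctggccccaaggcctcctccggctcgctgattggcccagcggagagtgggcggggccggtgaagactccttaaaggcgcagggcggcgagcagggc
Hsph1 (chr5:149636337-149636586, minus strand): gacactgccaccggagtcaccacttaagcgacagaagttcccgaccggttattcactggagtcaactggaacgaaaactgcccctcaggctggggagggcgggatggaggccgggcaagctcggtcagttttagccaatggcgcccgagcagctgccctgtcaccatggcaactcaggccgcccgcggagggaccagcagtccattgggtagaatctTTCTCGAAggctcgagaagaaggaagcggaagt
Hspb1 (chr5:135887669-135887918, plus strand): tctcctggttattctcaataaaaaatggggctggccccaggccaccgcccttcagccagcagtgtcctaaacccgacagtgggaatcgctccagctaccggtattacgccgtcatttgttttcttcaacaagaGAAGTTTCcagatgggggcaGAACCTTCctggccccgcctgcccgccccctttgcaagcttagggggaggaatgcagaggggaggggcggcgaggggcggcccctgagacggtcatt
Hspa5 (chr2:34771840-34772089, plus strand): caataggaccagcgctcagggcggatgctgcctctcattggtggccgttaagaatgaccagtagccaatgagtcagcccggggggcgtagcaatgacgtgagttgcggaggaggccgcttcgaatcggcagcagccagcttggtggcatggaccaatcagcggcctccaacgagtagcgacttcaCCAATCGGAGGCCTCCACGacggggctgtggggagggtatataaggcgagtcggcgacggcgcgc
Both strands were searched. The paired units read the same on either strand, and no matches overlapped. Hspa1b held 1 inward pair (GAAGATTC), Hspb1 held 2 (GAAGTTTC and GAACCTTC) and Hsph1 held 1 outward pair (TTCTCGAA). Hspa5 held 1 endoplasmic reticulum stress element. The table had no start for Hspa8 or Hsp90aa1, and the windows of Dnajb1 and Cirbp held none of the 3 motifs. Over the 27025 genes with a window of this length, 6.78% held the inward pair, 7.10% the outward pair and 0.122% the endoplasmic reticulum stress element. Either pair was held by 12.9%. A longer motif, 3 heat shock units in a row in alternating direction, was also searched and was held by 0.4%. No window of Hspa1a, Hspa1b, Hsph1, Dnajb1, Hspb1, Hspa5 or Cirbp held this longer motif. Where several starts were listed, the one given first was used. The windows of Hspa1b and Hspa1a were identical at 247 of 250 bases. Their near-identical transcripts may both bind the Hspa1b probe sets, so the Hspa1b signal may hold both.

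Hspb1, Hsph1, Hspa1b and Hspa5 differed among the 18 groups, and the means of all 4 were lower in exposed than in unexposed mice in at least 11 of 12 comparisons. An F test over all groups (limma, adjusted with Benjamini-Hochberg over all 17097 genes, as is every adjusted p of a level or a change here) passed for 4 of 8 genes, against 29.9% of all genes. These were Hspb1 (adjusted p = 1.18e-09), Hsph1 (adjusted p = 7.16e-08), Hspa1b (adjusted p = 0.000773) and Hspa5 (adjusted p = 0.00954). The other 4 missed the threshold, with adjusted p = 0.123 for Hspa8, 0.253 for Hsp90aa1, 0.346 for Cirbp and 0.583 for Dnajb1. Once arrays were weighted, 7 of 8 passed, and the share of all genes in that fit is not given here. Differences between groups held 65.9% of the variance of Hspb1 and 60.7% of that of Hsph1, against 18.5% for Dnajb1. The median over all genes was 26.5%, and 19.1% would arise with no group difference.

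Hspb1, the small heat shock protein HSP25, was lower in exposed than in unexposed mice in 12 of 12 comparisons of means. In KO lungs it averaged 12.45 ± 0.22 at 0 ppm, 12.35 ± 0.18 at 40 ppm and 11.97 ± 0.49 at 120 ppm after 4 weeks (SD, n = 5 each). After 1 week the KO means were 12.04 ± 0.45 at 0 ppm, 11.97 ± 0.18 at 40 ppm and 11.33 ± 0.26 at 120 ppm (SD, n = 5 each). In this strain the means at 40 ppm lay close to those at 0 ppm, and those at 120 ppm lay below both. In TG lungs Hspb1 averaged 12.13 ± 0.08 at 0 ppm, 11.51 ± 0.27 at 40 ppm and 11.37 ± 0.24 at 120 ppm after 4 weeks (SD, n = 5 each). After 1 week it averaged 11.90 ± 0.20 at 0 ppm, 11.68 ± 0.36 at 40 ppm and 11.27 ± 0.27 at 120 ppm (SD, n = 5 each). In WT lungs it averaged 12.47 ± 0.63 at 0 ppm, 11.97 ± 0.20 at 40 ppm and 11.68 ± 0.35 at 120 ppm after 4 weeks and, after 1 week, 11.84 ± 0.28 at 0 ppm, 11.28 ± 0.14 at 40 ppm and 11.28 ± 0.38 at 120 ppm (SD, n = 5 each). The highest group was the WT 4 week 0 ppm group and the lowest the TG 1 week 120 ppm group. Between neighbours in the order of the 18 groups, 16 of 17 gaps were smaller than the larger SD of the pair.

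Hsph1, the HSP110 that exchanges nucleotide on HSP70, was also lower in exposed mice in 12 of 12 comparisons of means. It averaged 11.30 ± 0.25 at 0 ppm, 11.06 ± 0.46 at 40 ppm and 10.87 ± 0.28 at 120 ppm in KO lungs after 4 weeks, and 10.76 ± 0.75 at 0 ppm, 10.58 ± 0.39 at 40 ppm and 9.92 ± 0.20 at 120 ppm after 1 week (SD, n = 5 each). In TG lungs the means were 10.95 ± 0.26 at 0 ppm, 10.05 ± 0.45 at 40 ppm and 9.92 ± 0.24 at 120 ppm after 4 weeks (SD, n = 5 each). After 1 week they were 10.40 ± 0.71 at 0 ppm, 10.36 ± 0.60 at 40 ppm and 9.44 ± 0.23 at 120 ppm (SD, n = 5 each). The exposed TG mice at 120 ppm after 4 weeks, with 9.50, 10.02, 10.02, 10.00 and 10.05, all lay below the unexposed mice, with 11.00, 11.33, 10.65, 10.98 and 10.80. The share of all genes whose groups separate in this way is not given here. In WT lungs Hsph1 averaged 11.37 ± 0.62 at 0 ppm, 10.71 ± 0.43 at 40 ppm and 10.43 ± 0.34 at 120 ppm after 4 weeks and, after 1 week, 10.64 ± 0.68 at 0 ppm, 9.95 ± 0.25 at 40 ppm and 9.88 ± 0.65 at 120 ppm (SD, n = 5 each). All 17 neighbours in the order of groups differed by less than the larger SD.

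Hspa1b, one of the genes for inducible HSP70, had a wider spread between mice. Its lowest and highest signals over the 90 lungs were 8.53 and 12.20, and 11 of 12 exposed means lay below the unexposed mean. In WT lungs after 1 week it had 8.82, 10.16, 11.00, 10.50 and 8.53 at 120 ppm, against 10.96, 11.63, 11.46, 11.51 and 11.46 at 0 ppm. Of the exposed mice, 4 of 5 lay below every unexposed mouse and 1 lay within their range. At 40 ppm the 5 WT mice of that week, with 9.94, 9.90, 10.81, 9.96 and 9.80, all lay below the unexposed mice, but the change of -1.32 (SE 0.51, adjusted p = 0.136) missed the threshold. That WT change did pass with only the arrays compared (limma, adjusted p = 0.0012), once arrays were weighted (0.0245) and with a replicate block (0.0327). Fits without 1 mouse aside, it missed under the other alternatives. In KO lungs after 1 week, Hspa1b had 10.29, 10.82, 10.44, 10.54 and 10.49 at 120 ppm, against 11.37, 11.50, 12.03, 12.17 and 11.81 at 0 ppm. Those groups did not overlap either, and the change of -1.26 (SE 0.51, adjusted p = 0.896) missed the threshold. Fits without 1 mouse aside, the KO change passed only in the fit of only the arrays compared (limma, adjusted p = 0.0439). How many of all genes separate so is not given, and both separations are descriptions only. The 1 exception in sign was TG at 40 ppm after 1 week, with a change of 0.22 (SE 0.51, adjusted p = 0.987).

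**Figure D1:**
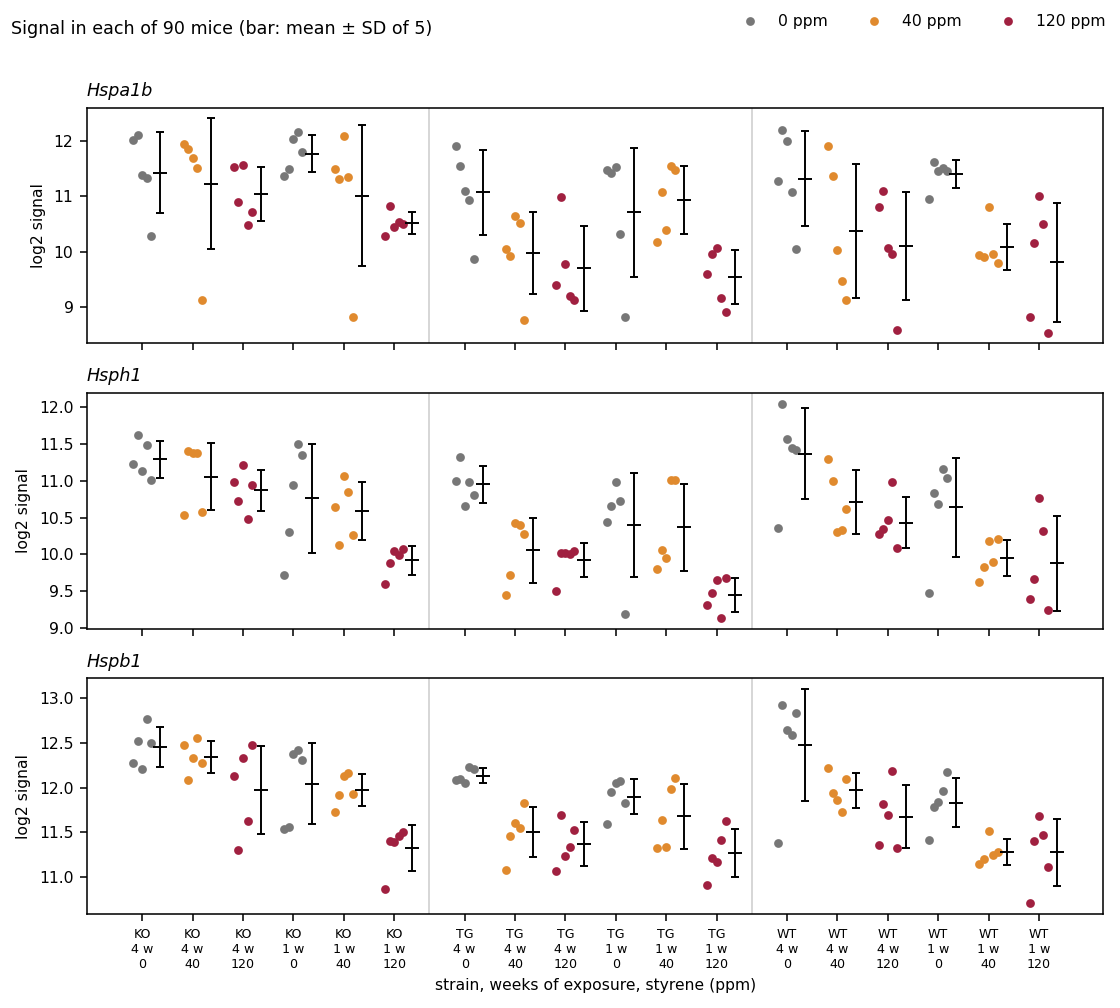
Log2 signal of Hspa1b, Hsph1 and Hspb1 (vertical axes) in each of 90 mice, by strain, weeks of exposure and styrene concentration; points are mice and black bars the mean ± SD of 5. Hspb1 and Hsph1 means at 120 ppm lie below those at 0 ppm in every strain at both durations, and single mice range widely for Hspa1b.

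Taken one strain, week and dose at a time, 2 of the 96 tests of these genes passed an adjusted p of 0.05, and 31 had an unadjusted p below 0.05. Over all genes 1.01% of such tests passed. The count for these genes was 15 of 96 once arrays were weighted, 5 with the poly-A signal as a covariate, and 1 to 6 on leaving out 1 mouse (6 without WT 1 week 0 ppm mouse 1). The 1.01% belongs to the fit with equal weights and no covariate, and the share of all genes under these alternatives is not given here. In WT lungs 4.67% of all genes were called at 40 ppm and 6.79% at 120 ppm after 1 week, and 0.152% and 0.439% after 4 weeks. In KO lungs 0.0234% were called at 120 ppm after 4 weeks and 0% in the other comparisons. In TG lungs 0.0468% were called at 120 ppm after 1 week, 0.0117% at 120 ppm after 4 weeks and 0% at 40 ppm. Hspa1b fell in WT lungs at 120 ppm for 1 week by 1.60 (SE 0.51, adjusted p = 0.0385), which is 3.04-fold lower, where 2.85% of all genes were called lower. Hspb1 fell in WT lungs at 120 ppm for 4 weeks by 0.79 (SE 0.20, adjusted p = 0.0349), which is 1.73-fold lower, where 0.14% of all genes were called lower. In that comparison Hspb1 had 11.36, 11.82, 11.70, 12.18 and 11.33 at 120 ppm, against 11.38, 12.92, 12.64, 12.59 and 12.83 at 0 ppm, and the lowest unexposed mouse overlapped the exposed group. The Hspa1b call was lost on leaving out any of 6 of the 10 mice (numbers 2, 3, 4 and 5 at 0 ppm, 1 and 5 at 120 ppm; adjusted p up to 0.198), and the Hspb1 call on leaving out any of 8 (numbers 2, 3, 4 and 5 at 0 ppm, 1, 2, 3 and 5 at 120 ppm; adjusted p up to 0.23).

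With the 2 durations averaged, a set of comparisons added after the values had been seen, 13 of 64 tests passed, and all 13 were lower in exposed mice. Without the 4 arrays of low weight, 20 of 64 passed, and the shares of all genes below are not from that fit. Over all 3 strains at 120 ppm, 4 of 8 genes fell, against 1.26% of all genes called lower and 2.09% called in either direction. Hspb1 changed by -0.66 (SE 0.08, adjusted p = 3.97e-09) and averaged 11.48 in exposed and 12.14 in unexposed lungs (n = 30 each). Hsph1 changed by -0.83 (SE 0.12, adjusted p = 4.66e-07), and Hspa1b by -1.17 (SE 0.21, adjusted p = 7.38e-05). These are 1.58-fold, 1.77-fold and 2.25-fold lower signals. Hspa5 changed by -0.19 (SE 0.05, adjusted p = 0.0168). At 40 ppm, 2 of 8 genes fell, against 0.193% of all genes. Hspb1 changed by -0.35 (SE 0.08, adjusted p = 0.0124) and Hsph1 by -0.45 (SE 0.12, adjusted p = 0.0374). The Hsph1 call at 40 ppm was lost on leaving out any of 25 of the 60 mice.

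Strain by strain at 120 ppm, Hspb1, Hsph1, Hspa1b, Hsp90aa1 and Hspa5 had negative changes in all 3 strains. The difference between strains was not tested with weeks averaged. In WT lungs 3 of 8 genes fell, against 2.11% of all genes called lower, and they were Hspa1b at -1.41 (SE 0.36, adjusted p = 0.00808), Hsph1 at -0.85 (SE 0.20, adjusted p = 0.00457) and Hspb1 at -0.68 (SE 0.14, adjusted p = 0.000632). The WT Hsph1 call was lost in a fit of only the arrays compared (adjusted p = 0.0591). In TG lungs 2 of 8 fell, against 0.222% of all genes. They were Hsph1 at -0.99 (SE 0.20, adjusted p = 0.00666) and Hspb1 at -0.69 (SE 0.14, adjusted p = 0.00475). Hspa1b was not called in TG lungs with arrays weighted equally. It passed there with a replicate block, at -1.27 (limma, adjusted p = 0.00888), and without the arrays of low weight, at -1.51 (adjusted p = 0.025). Fits without 1 mouse aside, TG Hspa1b passed under no other alternative. In KO lungs 0 of 8 passed, against 0.0292% of all genes, and Hspb1 had the smallest adjusted p with a change of -0.60 (SE 0.14, adjusted p = 0.0514). The KO change of Hspb1 did pass on its probe set next in brightness, at -0.72 (adjusted p = 0.00905). It also passed by the median over probe sets (adjusted p = 0.00526), with a replicate block (0.00612), with dim genes left out (0.0317) and with repeated quantile normalization (0.0469). It did not pass once arrays were weighted or with the poly-A covariate. At 40 ppm, Hspb1 at -0.53 (SE 0.14, adjusted p = 0.0133) and Hsph1 at -0.68 (SE 0.20, adjusted p = 0.041) fell in WT lungs, against 0.772% of all genes called lower. The Hsph1 call in WT lungs at 40 ppm was lost on leaving out any of 14 of 20 mice. Hspa1b was not called there with arrays weighted equally. It passed once arrays were weighted (limma, adjusted p = 0.00488), with a replicate block (0.00739) and without low-weight arrays (0.028). Other passes came with only the arrays compared (0.0292), the poly-A covariate (0.0384), the median over probe sets (0.0436) and dim genes left out (0.0485). Repeated quantile normalization and an intensity trend gave none. In KO and TG lungs at 40 ppm 0 of 8 passed, and 0% of all genes did.

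**Figure D2:**
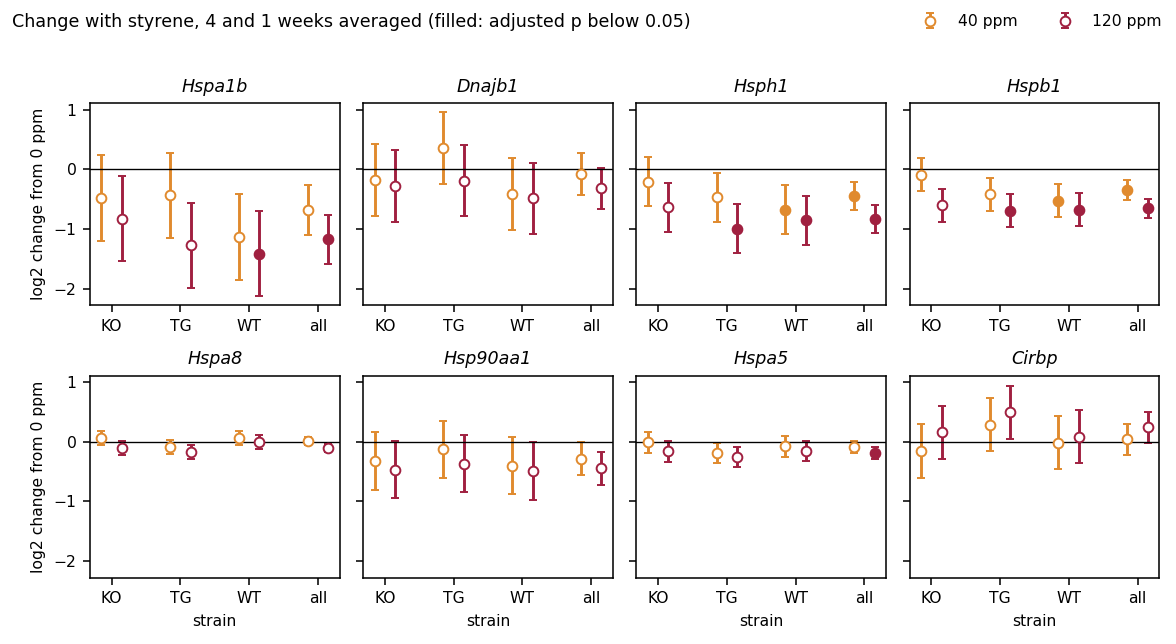
Log2 change from 0 ppm with 4 and 1 weeks averaged (vertical axis) at 40 ppm and 120 ppm in KO, TG and WT lungs and over all strains, for 8 genes; points are limma estimates, bars 95% intervals and filled points adjusted p below 0.05. The 13 filled points, for Hspa1b, Hsph1, Hspb1 and Hspa5, all lie below 0.

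The difference of the exposure change from that in wild type was tested directly at each duration. None of the 64 tests passed limma's adjusted threshold, 2 had an unadjusted p below 0.05, and 1.23% of such tests over all genes passed. For the KO change minus the WT change, 1.25% and 2.37% of all genes were called at 40 and 120 ppm after 1 week, and 0.0234% and 0.0175% after 4 weeks. For the TG change minus the WT change the shares were 1.53% and 4.59% after 1 week, and 0.0117% and 0.0292% after 4 weeks. For Hspb1 at 120 ppm after 4 weeks, the KO change minus the WT change was 0.31 (95% interval -0.24 to 0.86, adjusted p = 1) and the TG change minus the WT change was 0.03 (95% interval -0.52 to 0.59, adjusted p = 0.998). For Hspa1b after 1 week at 120 ppm, the KO change minus the WT change was 0.34 (95% interval -1.09 to 1.77, adjusted p = 0.869). For Hsph1 at 120 ppm after 4 weeks, the KO change minus the WT change was 0.52 (95% interval -0.30 to 1.33, adjusted p = 1), and the TG change minus the WT change was -0.09 (95% interval -0.91 to 0.72, adjusted p = 0.998). Among unexposed mice, 0 of 24 tests between strains passed and 2 had an unadjusted p below 0.05, while 0.275% of all genes were called for KO minus WT, 0.287% for TG minus WT and 0.135% for TG minus KO. The TG minus WT difference in unexposed Dnajb1 was -0.66 (95% interval -1.26 to -0.06, adjusted p = 0.493), the smallest adjusted p of these.

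In the fit of all 90 arrays with equal weights and no covariate, Dnajb1, Hsp90aa1, Hspa8 and Cirbp passed in no exposure comparison on their brightest probe sets. Dnajb1, an HSP40 that delivers clients to HSP70, was lower in exposed mice in 8 of 12 comparisons of means. It changed by -0.32 (SE 0.17, adjusted p = 0.486) over all strains at 120 ppm. Hsp90aa1, the inducible HSP90, was lower in 11 of 12 and changed by -0.44 (SE 0.14, adjusted p = 0.0819). Once arrays were weighted, Hsp90aa1 passed at -0.56 (limma, adjusted p = 2.1e-05). It also passed with the poly-A covariate, at -0.59 (adjusted p = 3.37e-05), and without the 4 arrays of low weight, at -0.56 (adjusted p = 0.000422). Fits without 1 mouse aside, it passed under no other alternative. The shares of all genes called in these fits are not given here. Hspa8, the constitutive HSP70 relative, spanned only 12.58 to 13.30 over the 90 mice and changed by -0.10 (SE 0.03, adjusted p = 0.129). Hspa8 passed without the 4 arrays of low weight, at -0.11 (adjusted p = 0.0471), and on the probe set next in brightness, at -0.14 (adjusted p = 0.0284). Cirbp changed by 0.24 (SE 0.13, adjusted p = 0.468), and its exposed means were higher in 7 of 12 comparisons. In TG lungs after 4 weeks at 40 ppm Cirbp had 8.12, 7.94, 7.50, 7.57 and 7.44, against 7.22, 6.49, 6.94, 7.36 and 6.87 at 0 ppm. The groups did not overlap, and the change of 0.74 (SE 0.32, adjusted p = 0.571) missed the threshold. In the same comparison Hspa5 had 11.21, 11.28, 11.52, 11.41 and 11.51 at 40 ppm, against 11.62, 11.95, 11.60, 11.80 and 11.84 at 0 ppm. These groups did not overlap either, and its change was -0.37 (SE 0.12, adjusted p = 0.349). Again the share of all genes that separate so is not given.

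**Figure D3:**
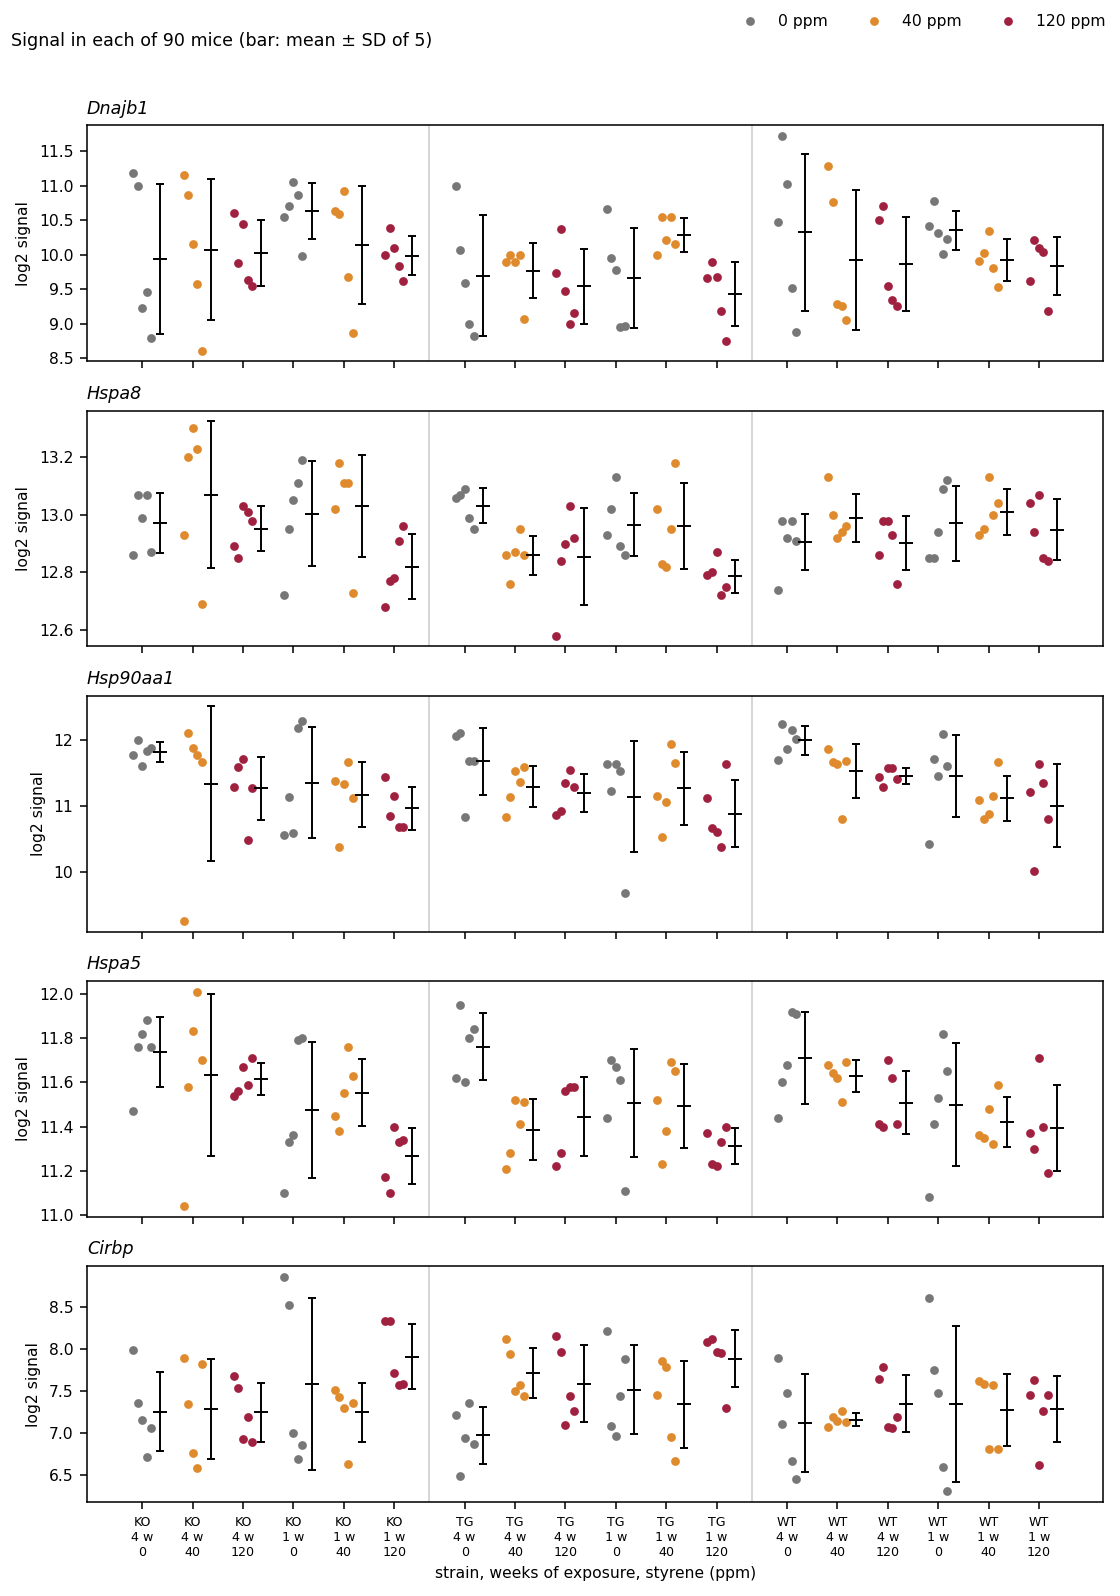
Log2 signal of Dnajb1, Hspa8, Hsp90aa1, Hspa5 and Cirbp (vertical axes) in each of 90 mice, by strain, weeks of exposure and styrene concentration; points are mice and black bars the mean ± SD of 5. Hspa8 stays between 12.58 and 13.30, while Dnajb1 and Cirbp spread widely inside most groups.

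Other genes of the same pathways were counted from lists. Of 22 other chaperones and heat shock factor targets measured, 8 fell and 0 rose over all strains at 120 ppm, and 21 of 22 changes were negative. In this comparison 1.26% of all genes were called lower and 2.09% in either direction. Their median change was -0.15, against -0.00 over all genes. The largest that passed were Stip1 (the HSP70 to HSP90 organiser) at -0.54 (SE 0.08, adjusted p = 3.04e-06), Hspa4l (an HSP110 relative) at -0.47 (SE 0.12, adjusted p = 0.0149), Cacybp at -0.45 (SE 0.12, adjusted p = 0.018) and Dnaja4 (an HSP40) at -0.42 (SE 0.06, adjusted p = 2.53e-06). Of 24 genes of the unfolded protein response and its chaperones, 5 fell and 0 rose, and 24 of 24 changes were negative with a median of -0.09. They included Sdf2l1 at -0.30, Creld2 at -0.27, Manf at -0.25 and Atf4 at -0.18. Of 6 genes listed as cold-inducible or temperature-sensitive, 0 passed.

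Clock genes moved with exposure in the same arrays. Of 16 measured, 9 rose and 4 fell over all strains at 120 ppm, where 0.836% of all genes were called higher and 1.26% lower. Dbp changed by 2.49 (SE 0.17, adjusted p = 1.96e-19), Npas2 by -1.79 (SE 0.12, adjusted p = 7.57e-21), Arntl by -1.70 (SE 0.12, adjusted p = 1.12e-19) and Nfil3 by -1.14 (SE 0.11, adjusted p = 2.62e-13). Per2 changed by 0.50 (SE 0.11, adjusted p = 0.00142). Of 11 immediate early genes, 2 fell, with Fos at -0.50 (SE 0.12, adjusted p = 0.0106) and Dusp1 at -0.36 (SE 0.08, adjusted p = 0.00235). Of 6 skeletal and cardiac muscle markers, 6 had negative changes and 0 passed. Of 7 leukocyte markers 0 passed, and of 6 endothelial and stromal markers 1 fell. The part of these genes in the change of the heat shock genes was not tested.

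Unexposed mice differed between the 2 durations. Comparing 4 weeks with 1 week at 0 ppm over the 3 strains, 3 of 8 genes rose, against 11.3% of all genes called higher and 17.2% called in either direction. Hsph1 averaged 11.21 at 4 weeks and 10.60 at 1 week, a change of 0.61 (SE 0.17, adjusted p = 0.00732) with n = 15 each. Hspb1 changed by 0.43 (SE 0.11, adjusted p = 0.00565). Hspa5 changed by 0.24 (SE 0.07, adjusted p = 0.0106) on its brightest probe set and by 0.16 (adjusted p = 0.224) on its other one. Hsp90aa1 changed by 0.51 (SE 0.20, adjusted p = 0.0606), Cirbp by -0.37 (SE 0.18, adjusted p = 0.164) and Hspa1b by -0.03 (SE 0.29, adjusted p = 0.968). Among the other chaperones 5 of 22 rose, including Hspa4l at 0.70 and Cacybp at 0.52, and in the unfolded protein response list 5 of 24 rose, including Hsp90b1 at 0.32 and Atf6 at 0.28. Of the 6 genes listed as cold-inducible or temperature-sensitive, 3 rose (Clk1 at 0.53, Rbm3 at 0.49 and Clk4 at 0.37), and Tra2b changed by -0.34 and fell. Duration, age at sampling and any batch of the 2 durations cannot be told apart here.

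Differences between mice of 1 group were large for most of these genes. The SD within groups was 0.83 for Hspa1b, above that of 99.7% of all genes, and 0.69 for Dnajb1, above 99.5%. It was 0.55 for Hsp90aa1, 0.51 for Cirbp, 0.47 for Hsph1, 0.32 for Hspb1, 0.19 for Hspa5 and 0.13 for Hspa8, where the median of all genes was 0.19. In unexposed KO mice of 1 week, Cirbp had 8.86, 8.53, 7.00, 6.70 and 6.86 while Hspa5 had 11.10, 11.33, 11.36, 11.79 and 11.80. Mice with high Cirbp had low Hspa5. In unexposed WT mice of 1 week, Cirbp had 8.61, 7.75, 7.48, 6.60 and 6.31 and Hspa5 had 11.08, 11.41, 11.53, 11.82 and 11.65, with the same opposition.

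These differences were correlated across the 90 mice after each group's mean was removed, with p-values from permutation within groups and adjusted over 28 pairs. Of the pairs, 21 passed, 15 positive and 6 negative. The share of all gene pairs that pass such a test is not given here, so the count does not set these genes apart from others. The same number passed with Spearman's rho, and each pair described as correlated passed with both. The smallest p that 100000 permutations can give is 1e-05. Hspa5 and Cirbp ran opposite to each other, with r = -0.83, permutation p = 1e-05, adjusted p = 2.33e-05, Spearman's rho = -0.83, permutation p = 1e-05, n = 90, and the sign was negative in 18 of 18 groups. Without the 2 mice farthest from the median Hspa5, r was -0.83. Hspa1b and Dnajb1 ran together, with r = 0.83, permutation p = 1e-05, adjusted p = 2.33e-05, Spearman's rho = 0.84, permutation p = 1e-05, n = 90, positive in 18 of 18 groups. Without the 2 mice farthest in Hspa1b, r was 0.81. Within single strains and single weeks, r ranged over -0.89 to -0.80 for Hspa5 with Cirbp and over 0.77 to 0.88 for Hspa1b with Dnajb1.

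A larger set moved with Hspa5 and against Cirbp. Hsph1 correlated with Hspa5 (r = 0.72, permutation p = 1e-05, adjusted p = 2.33e-05, Spearman's rho = 0.66, permutation p = 1e-05, n = 90), and without the 2 mice farthest in Hsph1 r was 0.67. Hsp90aa1 correlated with Hspa5 at r = 0.75 and Hsph1 with Hspb1 at r = 0.70. Cirbp had r = -0.70 with Hsph1, -0.66 with Hspa8 and -0.64 with Hspb1. Hspa1b also passed with 3 of these genes, at r = 0.55 with Hsph1, 0.49 with Hspa8 and 0.24 with Hspb1. It did not pass with Hspa5 (r = 0.05, permutation p = 0.697, adjusted p = 0.723, Spearman's rho = 0.00, permutation p = 0.996, n = 90) or with Cirbp (r = -0.07, permutation p = 0.469, adjusted p = 0.525, Spearman's rho = -0.05, permutation p = 0.656, n = 90). Dnajb1 had the opposite sign to the other chaperones with Hspa5, at r = -0.35. Hsp90aa1 also followed a technical measure, the mean signal of the poly-A spike-in controls (r = -0.70). Regressing all values on that measure left r = 0.68 between Hsp90aa1 and Hspa5.

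The replicate number that the labels give to each mouse moved with the same genes. An F test for any difference among the 5 numbers, added after the values had been seen and fitted beside the 18 group means, passed for 6 of 8 genes, against 7.09% of all genes. Dnajb1 (adjusted p = 3.96e-09) had the strongest such difference. Relative to their own group means, mice numbered 1 and 2 averaged 0.44 and 0.50 in Dnajb1, and mice numbered 5 averaged -0.72. Mice numbered 5 were below their group mean in 18 of 18 groups. Hspa1b (adjusted p = 6.79e-06) averaged -0.91 in mice numbered 5, below the group mean in 15 of 18 groups. Cirbp (adjusted p = 5.65e-06) averaged 0.48 in mice numbered 1, above the group mean in 17 of 18 groups, and -0.26 in those numbered 5. Hspa5 (adjusted p = 0.00074) went the other way, with -0.16 in mice numbered 1 and 0.11 in mice numbered 4. Hspb1 (adjusted p = 0.00143) and Hsph1 (adjusted p = 0.0416) also passed, and Hspa8 and Hsp90aa1 did not. The labels do not say what the number stands for, and its cause was not tested.

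**Figure D4:**
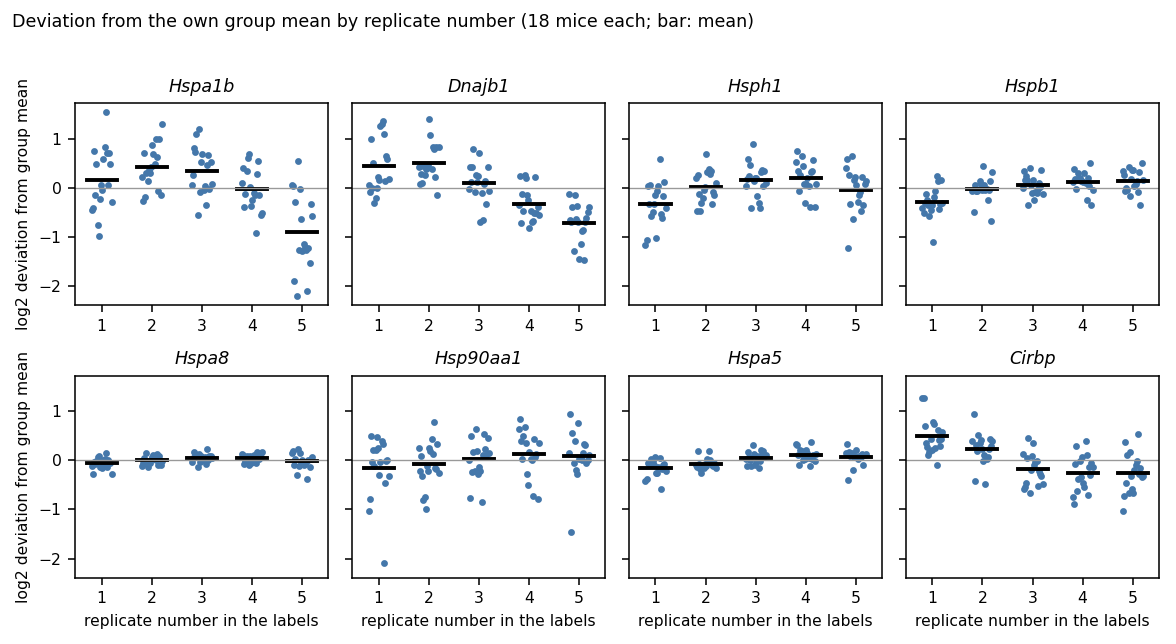
Deviation of each mouse from its own group mean on the log2 scale (vertical axis) by the replicate number in the labels (horizontal axis), for 8 genes; points are 18 mice per number and bars their means. Dnajb1 in mice numbered 5 lies below the group mean in 18 of 18 groups, and Cirbp in mice numbered 1 lies above it in 17 of 18.

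Removing the mean of each number as well changed some correlations and not others. Hspa5 with Cirbp then had r = -0.74 and Hspa1b with Dnajb1 r = 0.79. Dnajb1 with Hspb1 had r = 0.53 in place of -0.02, and Dnajb1 with Hsph1 had 0.57 in place of 0.23. Hspa1b with Hspb1 had 0.63 in place of 0.24, and Hspa1b with Cirbp had -0.49 in place of -0.07. Dnajb1 with Cirbp changed sign, with -0.23 in place of 0.29, and Dnajb1 with Hspa5 had -0.03 in place of -0.35. Hspa1b with Hsph1 had 0.77 in place of 0.55, and Hspa1b with Hspa8 had 0.60 in place of 0.49.

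**Figure D5:**
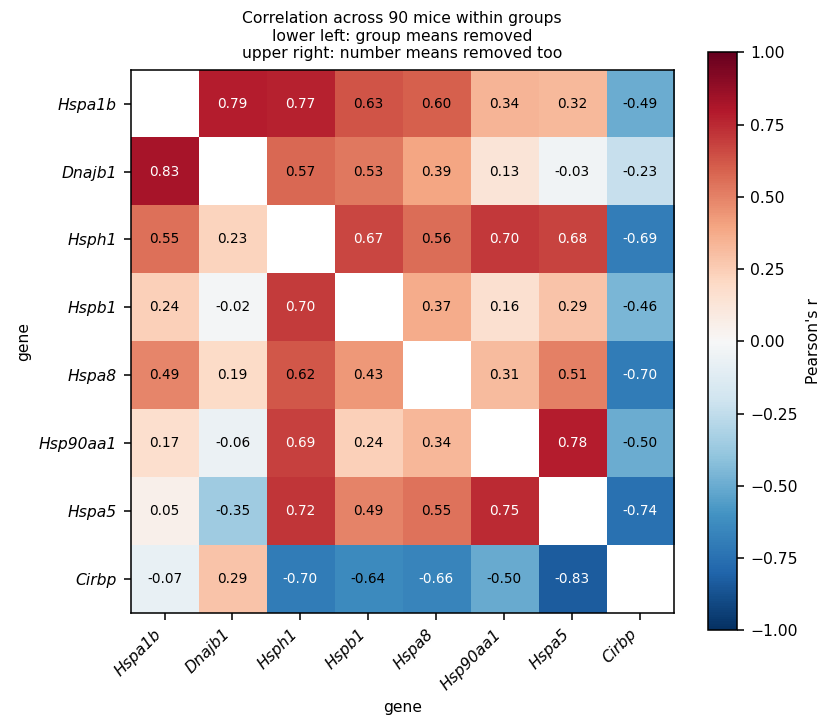
Pearson's r between 8 genes across 90 mice (both axes list the genes, colour and printed value give r), with group means removed in the lower left and the means of the replicate numbers removed too in the upper right. The Cirbp row is negative with Hspa5 at -0.83 and -0.74, and Dnajb1 with Hspb1 moves to 0.53, against -0.02 before.

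Across all 17097 genes, those most like Hsph1 over the 90 mice included known HSP90 and HSP70 partners. The highest were Ahsa2 at r = 0.90, Chordc1 at 0.85, Ahsa1 at 0.81, Ptges3 at 0.81 and Hspa4l at 0.80, and the lowest were Sirt5 at -0.79, Haghl at -0.73 and Stk10 at -0.72. For Hspa5 the highest were St13, an HSP70 cofactor, at 0.87, Hspa4l at 0.87, Gprasp1 at 0.83, Dnajb9, an endoplasmic reticulum HSP40, at 0.83 and Heatr5a at 0.82. The lowest were Haghl at -0.91, Grhpr at -0.83 and Cirbp itself. For Cirbp the highest were Haghl at 0.84, Atp6v1c2 at 0.82, Phykpl at 0.80, Hnrnpd at 0.80 and Lst1 at 0.78, and below Hspa5 came Manf at -0.77 and Creld2 at -0.77. These r share the arrays and are descriptions. Among 24 genes of the unfolded protein response, 21 had negative r with Cirbp, with a median of -0.50, against 0.03 over all genes. Of 11 immediate early genes, 10 had positive r with Cirbp, with a median of 0.50.

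With group means removed, Cirbp was not detectably correlated with Rbm3, the other well-known cold-inducible transcript, from mouse to mouse (r = -0.02, permutation p = 0.872, adjusted p = 0.905, Spearman's rho = -0.02, permutation p = 0.897, n = 90). Once the means of the replicate numbers were removed too, r was -0.38 (permutation test, adjusted p = 0.0161). Rbm3 then also passed with Hspa5 at r = 0.61, against 0.26 before, and with Hsph1 at 0.52, against 0.31 before (permutation test, adjusted p = 0.00056 for both). With only group means removed, the largest r of Rbm3 with the 8 genes was 0.62, with Hsp90aa1, which also followed the poly-A signal. The correlations of the 8 genes with Rbm3, 4 clock or early genes and 2 technical measures formed a family of 56, of which 19 passed. For this count, too, no share over all genes is given. Hsph1 correlated with Per2 (r = 0.60, permutation p = 1e-05, adjusted p = 0.000112, Spearman's rho = 0.57, permutation p = 1e-05, n = 90) and with Fos (r = -0.53, permutation p = 1e-05, adjusted p = 0.000112, Spearman's rho = -0.48, permutation p = 3e-05, n = 90). Without the 2 mice farthest in Hsph1, these were 0.57 and -0.52. Cirbp correlated with Fos (r = 0.48, permutation p = 6e-05, adjusted p = 0.00048, Spearman's rho = 0.45, permutation p = 0.0002, n = 90) and with Per2 (r = -0.45, permutation p = 0.00042, adjusted p = 0.00261, Spearman's rho = -0.41, permutation p = 0.00051, n = 90). Without the 2 mice farthest in Cirbp, these were 0.44 and -0.35. In the 30 WT mice alone, 0 of the 56 passed.

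The probe sets of 1 gene did not always move alike. The 3 probe sets of Hspa1b correlated at 0.99 over the 90 mice within groups, and the 2 of Dnajb1 at 0.96. For Hspb1, the probe set next in brightness followed the brightest at r = 0.97, and the 2 dim ones at 0.60 and 0.65. At 120 ppm over all strains, the Hspb1 probe sets after the brightest changed by -0.71 (adjusted p = 1.78e-09), -0.40 (adjusted p = 9.93e-06) and -0.42 (adjusted p = 8.57e-06). On the 2 dim probe sets, other Hspb1 calls were lost. The adjusted p on them was 0.617 and 0.377 for WT at 120 ppm after 4 weeks, and with weeks averaged 0.0505 and 0.0565 for WT at 120 ppm, 0.245 and 0.232 for WT at 40 ppm and 0.192 and 0.0643 for all strains at 40 ppm. For 4 weeks against 1 week in unexposed mice it was 0.381 and 0.121. For TG at 120 ppm with weeks averaged, the call was lost on 1 of them (adjusted p = 0.176). The dimmest Hspa8 probe set spanned 4.16 to 9.20 while the brightest spanned 12.58 to 13.30, and their r within groups was -0.14. Its values enter Hspa8 elsewhere only through the alternative by the median over probe sets. By that median, Hspa8 passed the test of replicate numbers (F test, adjusted p = 0.00102), against adjusted p = 0.293 on its brightest probe set.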

How the data were processed

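Whole-lung RNA of 90 mice was hybridised to 1 HT MG-430 PM array each. The deposited values are log2 signals for 45141 probe sets, and RMA and Partek are named for them per the submitters' processing notes, with no versions. They were used as deposited. RMA's quantile step gives arrays similar distributions, so a shift of all genes would not show. No read depth applies, and the number of arrays limits the precision.

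Probe sets with 1 gene symbol in the platform annotation were kept (28898), 551 with several symbols and 15588 with none listed were left out, and the brightest per gene gave 17097 genes. Groups came from the labels. Limma 3.58.1 in R 4.3.3 fitted 18 group means with moderated variances, and p-values were adjusted with Benjamini-Hochberg over all genes in each comparison. Correlations used deviations from group means, with 100000 permutations within groups (Python 3.11.15, scipy 1.17.1, numpy 2.4.6). The steps were tested on simulated data. The members and lists were chosen with earlier results of these data known, and the comparisons with weeks averaged, the test of replicate numbers, the other probe sets and the correlations within unexposed or exposed mice, or with number means removed, were added after seeing the data.

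Genes named outside the set were up to 4 per list by size of change among those that passed, the 5 highest and 3 lowest correlates of Hsph1, Hspa5 and Cirbp with a standard symbol, and Arntl, Dbp, Per2, Rbm3 and Fos. Alternatives were a repeated quantile normalization, dim genes left out, the median over probe sets, only the arrays compared, an intensity trend, array weights, a replicate block, a poly-A covariate, arrays of low weight left out, and each mouse left out in turn.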

Additional observations from a re-analysis of the deposited data

Results flagged for a closer look

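In each group of 5 the highest and the lowest mouse was set against the other 4, and a mouse was picked out when its gap to the nearest was more than 0.71 of the group's range (Dixon's 95% value). Chance picks out about 1 in 20 such groups, and over 144 tests of these genes 14 were found, where 7.2 would be expected by chance. Values are log2 signals.

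For Hspa1b these were 8.81 in the KO 1 week 40 ppm group (mouse 5, low), 9.13 in the KO 4 week 40 ppm group (mouse 5, low), 10.81 in the WT 1 week 40 ppm group (mouse 3, high) and 10.96 in the WT 1 week 0 ppm group (mouse 1, low). For Dnajb1 the value was 9.07 in the TG 4 week 40 ppm group (mouse 5, low). For Hsph1 they were 9.50 in the TG 4 week 120 ppm group (mouse 1, low) and 9.47 in the WT 1 week 0 ppm group (mouse 1, low). For Hspb1 they were 10.87 in the KO 1 week 120 ppm group (mouse 1, low) and 11.38 in the WT 4 week 0 ppm group (mouse 1, low).

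For Hsp90aa1 they were 9.25 in the KO 4 week 40 ppm group (mouse 1, low), 10.80 in the WT 4 week 40 ppm group (mouse 4, low) and 9.67 in the TG 1 week 0 ppm group (mouse 5, low). The arrays with 9.25 and 9.67 are among the 4 with weights below 0.25. For Cirbp they were 6.63 in the KO 1 week 40 ppm group (mouse 4, low) and 7.30 in the TG 1 week 120 ppm group (mouse 5, low).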

How the results depend on the processing

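Of the single exposure comparisons, where 2 of 96 tests passed, 15 passed once arrays were weighted, 5 once the poly-A signal was a covariate, 4 in fits of only the arrays compared, 4 once the low-weight arrays were dropped and 1 by the median over probe sets. Leaving out 1 mouse at a time gave 1 to 6, with 6 on leaving out WT 1 week 0 ppm mouse 1. The Hspa1b call had adjusted p = 0.158 with only the arrays compared, and the Hspb1 call 0.307 there and 0.0784 with the median over probe sets. With only the arrays compared, the Hsph1 calls with weeks averaged had adjusted p = 0.0534 (WT, 40 ppm), 0.0591 (WT, 120 ppm) and 0.0582 (all strains, 40 ppm). On its 2 dim probe sets, Hspb1 passed in neither case for 4 weeks against 1 week (adjusted p = 0.38 and 0.121). With weeks averaged, 13 of 64 passed, against 25 once arrays were weighted, 20 once the low-weight arrays were dropped, and 11 to 17 on leaving out 1 mouse. The comparisons of 4 weeks with 1 week gave 2 to 4 of 8, and 3 to 4 on leaving out 1 mouse. The differences from WT and between unexposed strains gave 0 under every alternative run. The F test among groups gave 7 of 8 once arrays were weighted and 4 to 5 on leaving out 1 mouse. Of 28 pairs, 18 to 23 passed on leaving out 1 mouse. Of 56 relations with other measures, 16 to 24 passed on leaving out 1 mouse, 0 in WT groups only, 9 in KO groups only, 8 in TG groups only, 13 in 1 week groups only and 3 in 4 week groups only. The test of replicate numbers, which passed for 6 of 8 genes, passed for 0 in WT groups only, 1 in KO groups only, 0 in TG groups only, 3 in 1 week groups only and 4 in 4 week groups only, with fewer mice in each. With number means removed, r turned to 0.53 for Dnajb1 with Hspb1, -0.23 for Dnajb1 with Cirbp and -0.10 for Dnajb1 with Arntl, which was -0.037 in KO groups only. Where a count moved, the cause was not tested unless named. Counts over all genes moved too in the test of replicate numbers. There 7.09% of all genes passed, against 15.3% once arrays were weighted. The share was 12.8% with the poly-A covariate and 16.2% without the low-weight arrays.

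Replicate numbers were taken as pairing the mice only if every same-numbered pair had r above 0.1 over all genes, and that was not met, although 6 of 8 of these genes and 7.09% of all genes differed by number. Over all genes, same-numbered mice of different groups had a mean r of 0.056, against -0.013 for other numbers, and 344 of 765 such pairs were above 0.1. With a replicate block, 6 of 96 exposure tests, 17 of 64 with weeks averaged, 3 of 8 for 4 weeks against 1 week, and 6 of 8 F tests passed.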
